A study of Homo sapiens with 6 samples.

Results

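The comparison followed control cells from the G1/S transition to the G2/M boundary with E2F7 present. For each gene it set the transcript level in the siNT library of 12 h against that in the siNT library of 0 h, as a log2 ratio of FPKM plus 0.1; FPKM divides the fragments of a gene by its transcript length and by the mapped fragments of the library. A gene entered if it was above 0 in both libraries and if its mean over the 2 libraries was at least 5 FPKM. This left 8991 genes of 13161 listed at any time. The siNT library of 3 h served as the midpoint.

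The cells were U2OS, an established human osteosarcoma line, and all 6 libraries of the series came from cells given 4 mM hydroxyurea for 24 h and then washed into complete medium. Cells carried a non-target control siRNA (siNT) or siRNA against E2F7 (siE2F7) and were taken at 0, 3 and 12 h, which the series describes as G1/S, S phase and the boundary of G2 and M. There was 1 library per arm and time. There was therefore no replicate, no error of a ratio and no test, and every difference below is one between 2 libraries. The depth is unknown, since the tables hold no counts, and no source used here says whether the tables of the 3 times were scaled together. In bulk RNA, more cells at a given phase and more RNA per cell cannot be told apart.

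Hydroxyurea blocks ribonucleotide reductase, so cells stall at the start of S phase for want of deoxynucleotides and move on together once it is washed out. Activator E2F factors switch on the genes of cyclin E, of replication origins and of nucleotide synthesis at G1/S, and E2F7, an atypical E2F that is itself made at that stage, represses them later. The genes of mitosis are switched on afterwards, largely through B-MYB with the MuvB complex and through FOXM1, at promoters that often hold CCAAT boxes and a cell cycle genes homology region (CHR).

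Promoter sequences of these genes were read from RefSeq (build GRCh38.p14, while the expression tables use hg19). The following 6 stretches come from the mitotic genes with the highest ratios that hold a CHR ahead of the start. They are shown because the share of promoters with this motif lay far apart in the mitotic and the replication lists, as counted further on. Each is written 5′ to 3′ along the gene's strand, and the capitals mark the CHR, TTTGAA or its reverse complement.
PLK1: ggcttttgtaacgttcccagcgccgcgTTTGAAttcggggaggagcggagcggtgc
CDC20: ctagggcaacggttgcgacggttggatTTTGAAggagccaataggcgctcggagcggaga
ASPM: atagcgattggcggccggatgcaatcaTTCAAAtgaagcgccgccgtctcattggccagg
CENPA: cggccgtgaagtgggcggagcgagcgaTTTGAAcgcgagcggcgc
CDCA8: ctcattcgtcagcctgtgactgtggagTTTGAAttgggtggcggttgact
CCNB2: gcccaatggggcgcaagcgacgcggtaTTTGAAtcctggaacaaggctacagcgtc
The stretch of PLK1 is chr16:23678833-23678888 on the plus strand, with its CHR 29 to 24 bases before the start. That of CDC20 is chr1:43358889-43358948 on the plus strand, and that of ASPM is chr1:197146750-197146809 on the minus strand. CENPA's is chr2:26786011-26786055, CDCA8's is chr1:37692466-37692515 and CCNB2's is chr15:59105090-59105145, all on the plus strand.

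Stretches from 2 replication genes, MCM6 and GINS2, and from E2F1 show the other motif, with the last E2F site ahead of the start in capitals. The promoter windows searched held 4 matches to this motif for MCM6, 2 for E2F1 and 1 for GINS2. Further matches that fall within a stretch were left in lower case, so lower case letters are not free of the motif. These genes were chosen after their values were seen, as lower ones with a site ahead of the start. Cyclin E2 (CCNE2) was left out of the printing whatever its motifs, so its absence here says nothing about its promoter.
MCM6: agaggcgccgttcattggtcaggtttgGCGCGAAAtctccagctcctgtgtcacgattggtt
E2F1: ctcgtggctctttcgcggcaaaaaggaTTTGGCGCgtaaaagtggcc
GINS2: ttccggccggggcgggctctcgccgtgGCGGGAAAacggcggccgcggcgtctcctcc
They lie on the minus strand, at chr2:135876495-135876556 for MCM6, chr20:33686386-33686432 for E2F1 and chr16:85688955-85689012 for GINS2.

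Over the whole comparison, 100 of 8991 genes were at least 2-fold higher at 12 h (1.11%) and 122 were at least 2-fold lower (1.36%). With the ratios centred on 16 housekeeping genes, whose median ratio was -0.09, the same counts were 137 higher and 84 lower, so the balance of higher against lower genes depends on the scaling. The median ratio over all genes was -0.02 with an SD of 0.39, and 7995 genes (88.9%) were within 1.5-fold. A difference of 4-fold or more was found for 10 genes that were higher and 3 that were lower. Small RNA entries, such as snoRNAs, made up the difference between these counts and the 91 higher and 120 lower genes that are other transcripts. Lower genes made up 2.67% of the genes in the lowest of 5 equal groups by mean FPKM and 0.33% in the highest.

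**Figure D1:**
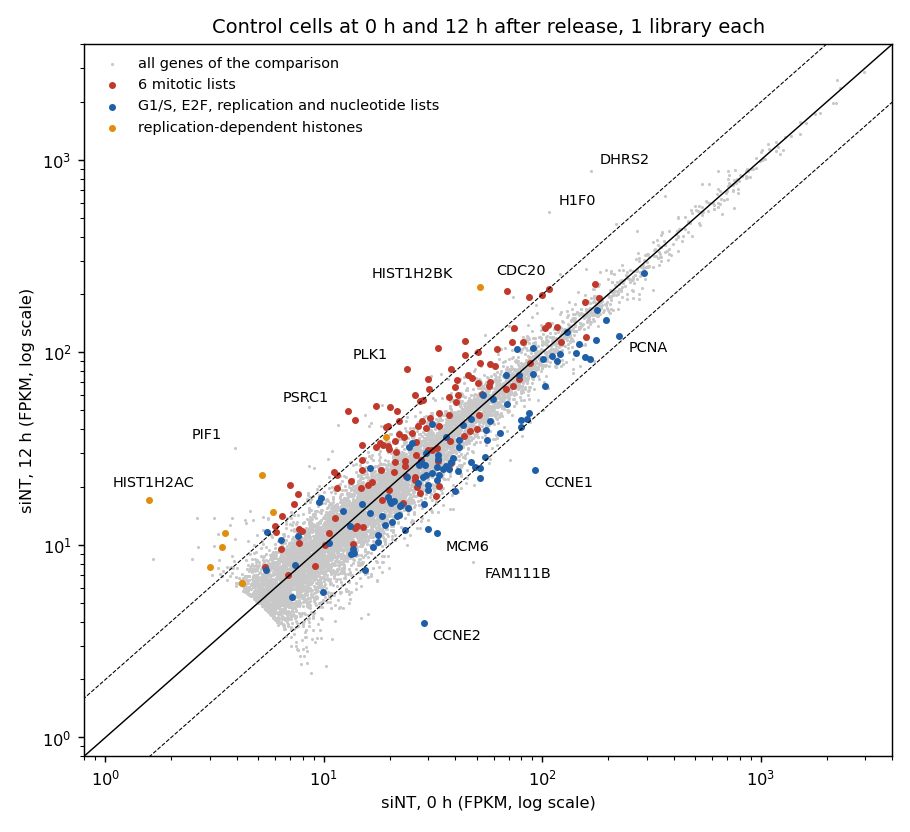
Level of each of the 8991 genes in the siNT library of 0 h (x axis) and of 12 h (y axis), both in FPKM on log scales, 1 point per gene. The solid line marks equal levels and the dashed lines a 2-fold difference; mitotic genes (red) lie mostly above the solid line, replication and G1/S genes (blue) mostly below it, and HIST1H2AC, PIF1, CCNE2 and FAM111B are among the farthest from it.

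Mitotic genes held more of the higher genes than any other group of lists. The 6 lists of mitotic genes held 145 genes, of which 128 were measured; 26 were at least 2-fold higher at 12 h, none was at least 2-fold lower, and 96 had a ratio above 0, as had 4250 of all 8991 genes. Their median ratio was 0.51 beside -0.02 over all genes. They thus made up 26% of the 100 higher genes. The median was -0.03 from 0 to 3 h and 0.47 from 3 to 12 h, and 53 of the genes were at least 1.5-fold higher at 12 h than at 3 h against 1 from 0 to 3 h, beside 498 and 349 of the 8971 genes measured at 3 h.

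Among the genes of mitotic entry, 4 of 16 were at least 2-fold higher, none was lower, and the median ratio was 0.73. PLK1 (hg19, chromosome 16, 23690201 to 23724821), the kinase that drives mitotic entry and centrosome maturation, stood at 23.9, 26.8 and 81.6 FPKM at 0, 3 and 12 h, a 3.40-fold difference over the whole interval. Cyclin B1 (CCNB1, chromosome 5, 68462837 to 68474070), the partner of CDK1 in mitosis, stood at 86.5, 93.6 and 193 FPKM. Cyclin B2 (CCNB2) stood at 44.3, 45.0 and 97.5 FPKM. For these genes the libraries of 0 and 3 h lay close together and that of 12 h stood apart. CDC25B, a phosphatase that activates CDK1, was just under the 2-fold mark at 28.4, 29.5 and 56.9 FPKM. CDK1 itself, whose activity is set mainly by its cyclins, was at 175 FPKM at both 0 and 3 h and at 228 FPKM at 12 h, a log2 ratio of 0.38. In the other direction stood MASTL, the Greatwall kinase, at 33.7, 26.2 and 20.3 FPKM, and PKMYT1, an inhibitory CDK1 kinase, at 26.7, 20.6 and 19.9 FPKM. FOXM1 was not listed at 0 h, stood at 90.5 and 97.0 FPKM at 3 and 12 h, and so could not be compared.

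The kinases and the spindle checkpoint had 5 of 22 genes at least 2-fold higher and a median ratio of 0.75. CDC20 (chromosome 1, 43824626 to 43828873), the activator of the anaphase-promoting complex at the metaphase to anaphase transition, stood at 68.7, 66.8 and 208 FPKM, 3.03-fold higher at 12 h. AURKA, a spindle pole kinase, stood at 44.0, 48.4 and 115 FPKM, while AURKB, the kinase of the chromosomal passenger complex, stood at 22.0, 22.3 and 37.5 FPKM. Both were flat over the first step, and the log2 ratio over the interval was 1.38 for AURKA and 0.76 for AURKB. NEK2, a kinase of centrosome separation, had an intermediate level at 3 h, with 17.3, 25.5 and 52.5 FPKM. CDCA8, another subunit of the passenger complex, stood at 26.0, 26.6 and 60.0 FPKM. MAD2L1, a core checkpoint protein, did not share the pattern, at 68.3, 54.6 and 64.5 FPKM.

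Among mitotic motors and spindle proteins, 8 of 15 kinesins and 17 of 29 spindle genes were at least 1.5-fold higher at 12 h than at 3 h. Over the whole interval, of 15 kinesins 5 were at least 2-fold higher (median 0.76), and of 29 genes of the spindle, midzone and cytokinesis 10 were (median 0.65), with none lower in either list. KIF20A, a midzone kinesin that shares its locus with another entry, stood at 13.9, 13.3 and 44.5 FPKM. CENPE, the kinesin of the kinetochore, stood at 7.64, 9.36 and 18.5 FPKM. The highest ratio of the mitotic lists was that of PSRC1, a microtubule-binding spindle protein, at 12.9, 10.7 and 49.6 FPKM with a log2 ratio of 1.94. FAM83D, a spindle protein that anchors casein kinase, stood at 33.4, 28.2 and 106 FPKM, and ASPM, a spindle pole protein, at 6.99, 10.8 and 20.6 FPKM, already 1.53-fold higher at 3 h. KIF2A, KIF3A and KIF5B, kinesins that also work outside mitosis, had ratios of -0.26, 0.03 and 0.30.

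In the centromere list 2 of 33 measured genes were at least 2-fold higher, 14 had a ratio above 0, and the median was -0.11. The higher pair was CENPA, the histone H3 variant of centromeres, at 30.0, 35.0 and 72.6 FPKM, and HJURP, the chaperone that deposits it, at 30.4, 27.3 and 64.7 FPKM. CENPF, an outer kinetochore protein, was at 22.1, 30.1 and 43.9 FPKM. Lower ratios were found for DSN1, a subunit of the MIS12 complex, at 32.6, 17.6 and 18.0 FPKM, and for CENPQ at 27.6, 24.3 and 18.6 FPKM. In the condensin list no gene passed 2-fold either way; TOP2A, which untangles sister chromatids, came nearest at 99.9, 134 and 198 FPKM. The cohesin list (15 genes, median -0.03) also had none past 2-fold, with PTTG1, the securin that holds back separase, at 93.2, 98.4 and 176 FPKM.

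Lists next to the mitotic ones held few genes past 2-fold. The medians were 0.06 for the APC/C and SCF ubiquitin ligases, 0.08 for the nuclear envelope and pores and -0.12 for DREAM and MuvB. UBE2C, the ubiquitin-conjugating enzyme of the anaphase-promoting complex, was the only 1 of 22 genes of the APC/C and SCF list past 2-fold, at 120, 120 and 256 FPKM. PIF1 (chromosome 15, 65107833 to 65117838), a DNA helicase, was in none of these lists. It had the second highest ratio of all genes other than small RNA entries, at 3.93, 4.84 and 32.1 FPKM and 7.98-fold higher. PIF1 entered the comparison only through the library of 12 h. KPNA2, an importin, stood at 217, 250 and 465 FPKM, and SUN2, which ties the nuclear envelope to the cytoskeleton, at 8.55, 11.2 and 25.8 FPKM; these were 2 of 32 genes of the nuclear envelope list past 2-fold. Of the DREAM and MuvB subunits none of 10 passed 2-fold, and MYBL2, which encodes B-MYB, stood at 152, 141 and 110 FPKM.

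**Figure D2:**
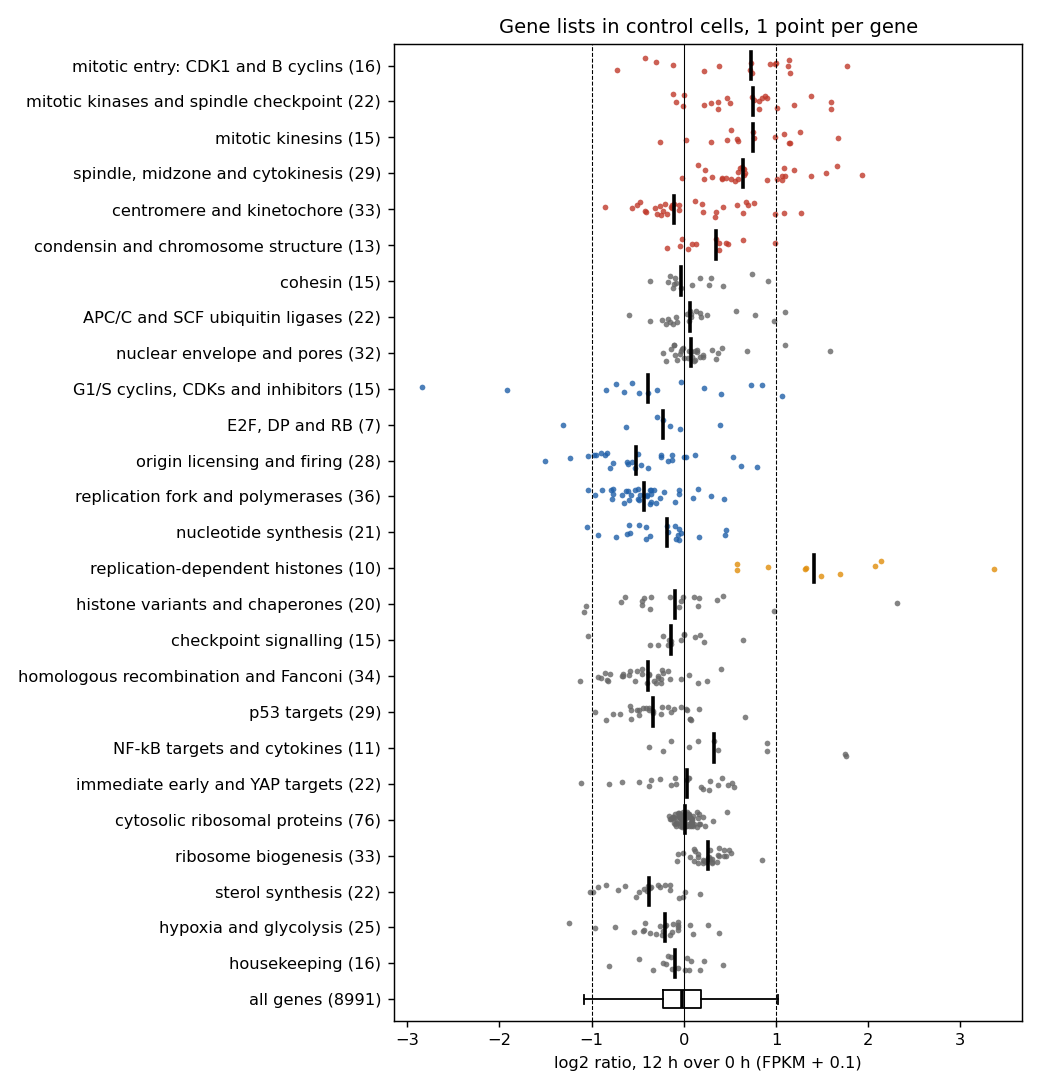
Log2 ratio of 12 h over 0 h in siNT cells (x axis, FPKM + 0.1) for the genes of 26 lists, 1 point per gene, with the number of genes in brackets. Black bars are medians, dashed lines a 2-fold difference; the box at the foot gives the quartiles of all 8991 genes with whiskers at the 1st and 99th percentiles, and the 4 lists of mitotic entry, kinases, kinesins and spindle genes have medians from 0.65 to 0.76.

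The E cyclins of the G1/S transition were both at least 2-fold lower. Of all 122 lower genes 18 were in any list, and the same share over all genes was not counted. Cyclin E2 (CCNE2, chromosome 8, 95835534 to 95907482) had the lowest ratio of all genes, at 28.6, 17.3 and 3.91 FPKM and 7.15-fold lower at 12 h; its locus overlaps another entry. Cyclin E1 (CCNE1, chromosome 19, 30302901 to 30315215) stood at 92.5, 71.1 and 24.4 FPKM and was 3.78-fold lower. Both cyclins pair with CDK2 to start S phase, and for both the larger part of the difference lay after 3 h. E2F1, an activator E2F, stood at 30.1, 23.4 and 12.0 FPKM with a log2 ratio of -1.31. Its relatives E2F3 and E2F4 had ratios of -0.05 and 0.39, and RB1, the pocket protein that restrains E2F, one of -0.62. E2F2, at 5.04, 1.89 and 1.30 FPKM, and E2F8, at 4.84, 3.65 and 2.84 FPKM, were below the filter and both lower at 12 h than at 0 h.

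E2F7 (chromosome 12, 77415026 to 77459360) stood at 20.3, 29.4 and 16.6 FPKM, so its level was highest in the S phase library, and it differed by -0.29 on the log2 scale between 12 and 0 h. In the siE2F7 libraries it stood at 9.48, 10.6 and 5.52 FPKM, below the siNT library of each time. Among other G1/S regulators, CDKN1A, which encodes the CDK inhibitor p21, stood at 166, 158 and 92.7 FPKM and CCND3 at 63.8, 57.4 and 38.3 FPKM. The opposite order was seen for CDKN1B, which encodes the inhibitor p27, at 9.67, 12.0 and 17.4 FPKM, and for CCNG2, a cyclin of arrested cells, at 5.51, 14.0 and 11.6 FPKM. In the list of 15 G1/S cyclins, CDKs and inhibitors, 1 was at least 2-fold higher and 2 at least 2-fold lower, with a median of -0.39.

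The replication machinery was lower at 12 h by smaller amounts than the E cyclins. Of 28 genes of origin licensing and firing 3 were at least 2-fold lower, none was higher, 5 had a ratio above 0, and the median was -0.52. MCM6 (chromosome 2, 136597196 to 136634011), a subunit of the replicative helicase, stood at 32.9, 22.4 and 11.5 FPKM, 2.83-fold lower at 12 h. Of its partners, MCM5 stood at 51.9, 34.5 and 25.2 FPKM and MCM7, whose locus is shared, at 100, 102 and 92.1 FPKM. The log2 ratio was -0.13 for MCM7 and -0.95, -0.83, -0.85 and -1.04 for MCM2, MCM3, MCM4 and MCM5, so MCM6 was the lowest of the subunits and MCM7 the nearest to level. GINS2, of the GINS complex that joins the helicase, was the third gene past 2-fold, at 52.1, 34.5 and 22.1 FPKM. CDC6, which loads the helicase, stood at 80.1, 73.7 and 40.8 FPKM, a log2 ratio of -0.97. DBF4 and DBF4B, activating subunits of the CDC7 kinase, stood against the list with ratios of 0.62 and 0.80, while CDC7 itself was at -0.77.

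For fork proteins both steps lay below those of all genes. The median of the 36 fork and polymerase genes was -0.34 from 0 to 3 h and -0.09 from 3 to 12 h, beside -0.10 and 0.06 over all genes, which gave -0.44 over the interval, with 1 gene at least 2-fold lower and none higher. That gene was CLSPN, the checkpoint adaptor claspin, at 15.4, 12.9 and 7.45 FPKM, with the larger part of its difference after 3 h. PCNA, the sliding clamp, stood at 225, 161 and 122 FPKM, though its locus overlaps another entry. The primase subunit PRIM1 stood at 56.0, 37.6 and 35.0 FPKM. Among 21 genes of nucleotide synthesis the median was -0.18. DUT, which removes dUTP, was the only one past 2-fold, at 39.7, 32.5 and 19.2 FPKM. RRM2, the subunit of ribonucleotide reductase on which hydroxyurea acts, stood at 175, 194 and 116 FPKM, and TYMS, thymidylate synthase, at 157, 124 and 94.2 FPKM. MCM5, CLSPN and DUT lay close to 2-fold, as did CHAF1B, INSIG1 and CCNG2, and each lost it under at least 1 other setting.

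Of DNA repair, only homologous recombination and the Fanconi pathway had a list, and its median was below 0 as in the replication lists. Of 34 genes of homologous recombination and the Fanconi pathway, 4 had a ratio above 0 and the median was -0.39. RMI2, a partner of the BLM helicase, was the only one past 2-fold, at 14.0, 8.02 and 6.34 FPKM. UNG, which removes uracil from DNA, is not in that list and was named by hand. It stood at 39.1, 26.9 and 15.4 FPKM and does not speak for other repair genes. FAM111B (chromosome 11, 58874658 to 58894888), a protease gene, had the second lowest ratio of all, at 48.3, 26.6 and 8.19 FPKM and 5.83-fold lower. Of the 15 checkpoint signalling genes 1 was at least 2-fold lower and none higher, with a median of -0.13. The 29 p53 targets had none past 2-fold and a median of -0.34, with CDKN1A at -0.84 and ZMAT3, an RNA-binding target, at 0.67.

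**Figure D3:**
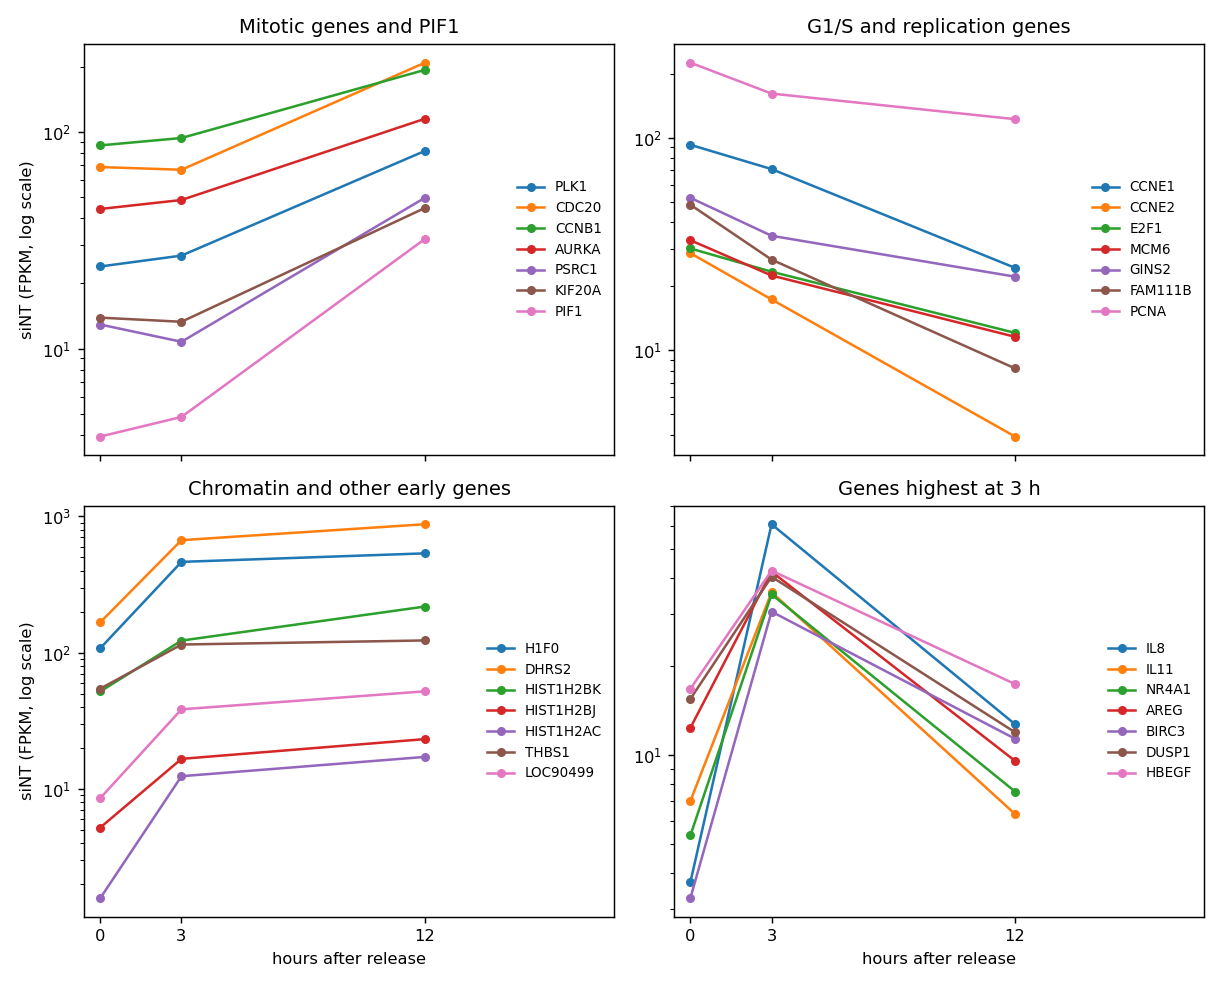
Levels in the 3 siNT libraries (y axis, FPKM, log scale) against hours after release (x axis) for 28 genes in 4 panels, 1 library per point and no error bars. Mitotic genes and PIF1 are near level from 0 to 3 h and highest at 12 h, G1/S and replication genes are lowest at 12 h, the chromatin panel is mostly higher by 3 h, and the last panel peaks at 3 h, as with IL8 at 3.71, 60.7 and 12.7 FPKM.

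The promoter motifs differed between these gene groups. A CHR was found within 250 bases before to 50 after the first listed start in 60 of 106 mitotic genes with a promoter in the table (56.6%), in 3 of 72 genes of the licensing, fork and nucleotide lists (4.17%), and in 661 of 7169 genes of the comparison other than small RNA entries (9.22%). Over 1 start for each of the 27305 genes in the table the share was 15.4%. An E2F site (TTTGGCGC, TTTCGCGC, TTTCCCGC or TTTGCCGC) was found in 23 of the 72 replication genes (31.9%), in 7 of the 106 mitotic genes (6.60%) and in 5.90% of the genes of the comparison, against 3.33% in the table. The shares with CCAAT were 65.1% in the mitotic, 51.4% in the replication and 37.1% in all genes of the comparison. All motifs were searched on both strands, and a match says only that the letters are present.

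The median ratio was 0.58 for mitotic genes with a CHR and 0.32 for those without. For the CHR, the 2-fold calls did not lie apart in this way. Past 2-fold were 12 of the 60 mitotic genes with a CHR and 10 of the 46 without. A CHR was thus held by 54.5% of the 22 mitotic genes past 2-fold with a promoter, beside 56.6% of all 106. For CCAAT the medians were 0.64 with and 0.22 without, and 17 of 69 mitotic genes with it and 5 of 37 without were at least 2-fold higher. For replication genes the median was -0.53 with an E2F site and -0.36 without. At least 2-fold lower were 3 of the 23 with a site and 1 of the 49 without. These counts are small and were not tested. The mitotic lists had been written from knowledge of cell cycle genes, a knowledge that includes their promoters. The same count over all 100 higher and all 122 lower genes is void, since only 68 (68%) and 90 (73.8%) of them had a promoter in the table, under the 80% required here. Of all 8991 genes 79.7% had one, or 80.2% with small RNA entries left out.

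A second set of genes was already higher at 3 h. Of the 100 genes at least 2-fold higher over the interval, 42 had the larger step from 0 to 3 h and 58 the larger from 3 to 12 h; among the 120 lower genes measured at 3 h, these counts were 43 and 77. Among abundant genes, DHRS2 (chromosome 14, 24105573 to 24114848), a mitochondrial short-chain dehydrogenase, stood at 167, 669 and 876 FPKM. H1F0 (chromosome 22, 38201114 to 38203443), a linker histone typical of cells that have left the cycle, stood at 108, 463 and 535 FPKM. For both, most of the difference was present in the library of 3 h. H1FX, another linker histone, stood at 37.2, 83.0 and 73.1 FPKM. Among genes of the matrix and its receptors, 2 of 25 were past 2-fold. THBS1, which encodes thrombospondin, stood at 54.4, 115 and 123 FPKM. ITGA2, an integrin subunit for collagen, stood at 4.36, 8.54 and 13.5 FPKM and entered only through the library of 12 h.

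Replication-dependent histone genes had the highest median of the 38 lists, though the sources used here do not say whether the library kit selected poly(A) RNA. The list held 70 such genes, whose transcripts mostly end in a stem-loop and not in a poly(A) tail. Of these, 23 were listed at any time and 10 entered the comparison. Among the 10, 7 were at least 2-fold higher, none was lower, and the median ratio was 1.41. The filter favours such values. HIST1H2AC, HIST1H2BC, HIST1H2BE and HIST1H2BN, at 1.57, 3.42, 3.52 and 3.02 FPKM at 0 h, reached the mean of 5 FPKM only through 12 h. So did HIST2H2AA3 and HIST2H2AA4, both at 4.21 FPKM at 0 h and 6.35 FPKM at 12 h. HIST1H2BK, HIST1H1C, HIST1H2BJ and HIST1H2BD were above 5 FPKM at 0 h. HIST1H2AC (chromosome 6, 26124373 to 26124918), an H2A gene, had the highest ratio of all genes other than small RNA entries, at 1.57, 12.4 and 17.1 FPKM and 10.3-fold higher. HIST1H2BK, an H2B gene, was the most abundant, at 51.8, 122 and 218 FPKM. HIST1H2BJ stood at 5.19, 16.6 and 23.2 FPKM and HIST1H1C, a linker histone, at 19.3, 23.7 and 36.5 FPKM. Histone genes are near-identical copies, so reads may have been divided between them: HIST2H2AA3 and HIST2H2AA4 had the same values. SLBP, which binds the stem-loop, had the opposite order at 32.7, 32.7 and 21.0 FPKM, and CHAF1B, a subunit of the chaperone that deposits new histones, stood at 17.5, 11.9 and 8.18 FPKM. Among the 20 variants and chaperones in all, 1 was at least 2-fold higher and 2 lower.

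At the midpoint, 111 of 8971 genes (1.24%) were at least 1.5-fold above both ends and 147 (1.64%) at least 1.5-fold below both. This balance also depends on scaling: the counts were 171 and 90 with ratios centred on the median gene, whose ratio of 3 h over 0 h was -0.10, 208 and 76 with centring on housekeeping genes (-0.14), 188 and 81 with a common FPKM sum, and 133 and 114 after quantile normalization. The genes most above both ends included cytokines and other signalling genes. IL11 (chromosome 19, 55875757 to 55881814), a cytokine, stood at 6.99, 35.7 and 6.32 FPKM. IL8 (chromosome 4, 74606223 to 74609433), a chemokine that attracts neutrophils, stood at 3.71, 60.7 and 12.7 FPKM, 15.9-fold higher at 3 h than at 0 h. NR4A1, an immediate early nuclear receptor, stood at 5.34, 35.1 and 7.53 FPKM, and AREG, an EGF receptor ligand, at 12.4, 41.9 and 9.56 FPKM. IL11, NR4A1 and AREG were at 12 h within 1.5-fold of their level at 0 h, while IL8 and BIRC3 were not. BIRC3, an inhibitor of apoptosis, stood at 3.28, 30.7 and 11.4 FPKM. IL8 and BIRC3 entered the comparison only through the library of 12 h. Of 11 NF-kB targets and cytokines 5 peaked at 3 h, with a median of 0.93 from 0 to 3 h, and of 22 immediate early and YAP targets 4 did, with a median of 0.49. DUSP1, a phosphatase of MAP kinases, stood at 15.5, 40.3 and 12.0 FPKM, and HBEGF, another EGF receptor ligand, at 16.8, 42.2 and 17.4 FPKM. The immediate early gene EGR1 did not peak, at 18.9, 12.7 and 10.8 FPKM, and ATF3 was lower at the end, at 26.5, 37.5 and 12.2 FPKM.

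The genes most below both ends at 3 h included several of low level. NBL1, whose locus is shared, stood at 7.69, 2.05 and 7.57 FPKM, BANP, a nuclear matrix protein gene, at 4.26, 1.53 and 6.16 FPKM, and DNMT3B, a DNA methyltransferase, at 6.44, 2.83 and 6.44 FPKM. The 76 cytosolic ribosomal protein genes had a shared, smaller dip, with a median of -0.25 from 0 to 3 h, 0.25 from 3 to 12 h and 0.01 over the interval, and none past 2-fold; over all genes the steps had medians of -0.10 and 0.06. The medians for 60 genes of oxidative phosphorylation were -0.31 and 0.20, and those for 31 proteasome subunits -0.22 and 0.10. Genes of short loci as a whole showed such a dip in siNT. With genes cut into 5 equal groups by locus span, the median of 3 h over 0 h ran from -0.20 for the shortest to -0.02 for the longest in siNT, and the median of 12 h over 3 h from 0.18 to -0.07. In siE2F7 the medians of 3 h over 0 h were -0.04 and -0.06 in these groups. Over the whole interval the siNT medians of the groups lay between -0.07 and 0.01. The part of the siNT library of 3 h in these dips was not tested.

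**Figure D4:**
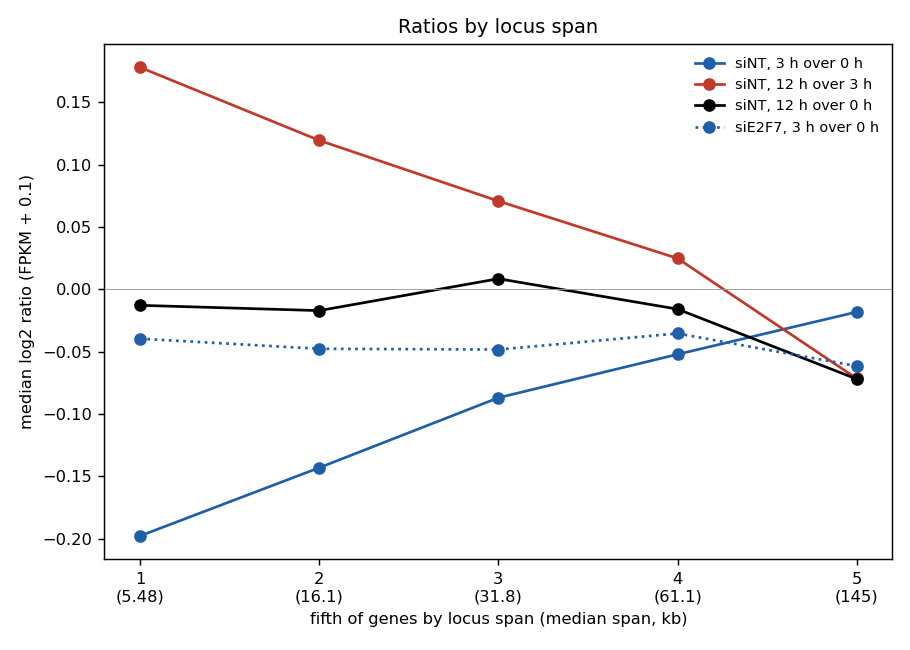
Median log2 ratio (y axis, FPKM + 0.1) of genes in 5 equal groups by locus span (x axis, shortest on the left, median span in kb in brackets). In siNT the ratio of 3 h over 0 h climbs from -0.20 to -0.02 with span and that of 12 h over 3 h descends from 0.18 to -0.07, while the siE2F7 ratio of 3 h over 0 h (dotted) stays between -0.06 and -0.04.

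The remaining lists held few genes past 2-fold. The 33 ribosome biogenesis genes had none past 2-fold, but 30 were above 0, with a median of 0.26 and PPAN, a 60S assembly factor with a shared locus, highest at a ratio of 0.85. Sterol synthesis had 2 of 22 genes above 0 and a median of -0.38, with 1 gene past 2-fold, INSIG1, which holds sterol regulators in the endoplasmic reticulum, at 15.4, 10.2 and 7.54 FPKM. Hypoxia and glycolysis genes (25) had a median of -0.21, with 1 gene past 2-fold, the enolase ENO2, at 48.9, 29.9 and 20.5 FPKM. The 31 genes of the ATF4 response and tRNA synthetases had a median of -0.23, and 2 were at least 2-fold lower: CTH, which makes cysteine, at 15.4, 12.4 and 7.03 FPKM, and PSPH, of serine synthesis, at 27.8, 19.6 and 13.3 FPKM. No gene passed 2-fold among the 31 heat shock and chaperone genes, whose median was -0.12. Of the interferon-induced list 5 genes were measured and none passed 2-fold, with ISG15, a ubiquitin-like protein, at 9.39, 8.83 and 10.8 FPKM. Housekeeping genes (16) had none past 2-fold; TFRC, the transferrin receptor, was lowest at 138, 125 and 78.4 FPKM. The 15 tubulins and stathmin had none past 2-fold either, with TUBB4B at 270, 266 and 427 FPKM and TUBG1, at the centrosome, at 65.4, 46.6 and 46.7 FPKM.

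Vimentin (VIM) stood at 761, 759 and 886 FPKM, COL1A1 at 376, 363 and 304 FPKM and SPARC at 528, 447 and 460 FPKM. RUNX2, the osteoblast factor, was below the filter at 3.00, 4.12 and 4.60 FPKM, and SP7, BGLAP and IBSP were not listed. Of the epithelial list only KRT8, KRT18 and CLDN4 entered the comparison, with KRT8 at 89.3, 87.4 and 90.6 FPKM and CLDN4, a tight junction protein, at 7.04, 6.79 and 3.31 FPKM, more than 2-fold lower, and EPCAM was at 3.08, 3.24 and 2.33 FPKM. Of the blood list only CD68 did, at 7.19, 6.39 and 5.45 FPKM, and PTPRC, CD3E and CD14 were not listed. ALPL, an early osteoblast enzyme, stood at 12.4, 11.0 and 6.76 FPKM, and CDH11, osteoblast cadherin, at 9.78, 8.94 and 4.12 FPKM, also more than 2-fold lower.

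The siE2F7 arm offered the same interval in other libraries. Over 8855 genes under the same filter, 127 were at least 2-fold higher (1.43%) and 117 at least 2-fold lower (1.32%). The higher genes common to both arms numbered 63, which is 63% of those of siNT and 49.6% of those of siE2F7; for the lower genes there were 43, or 35.2% and 36.8%. Across 8985 genes the ratios of the arms had a Pearson r of 0.74 and a Spearman rho of 0.72, given as a description, since genes are not independent and both arms of a time share a table. The mitotic genes had similar or higher medians with siE2F7: 0.76 against 0.51 over all 128, and 1.08 against 0.73 in the entry list. PLK1 stood at 19.6, 23.5 and 109 FPKM there. In the centromere list the medians were 0.30 with siE2F7 and -0.11 with siNT.

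Values of the arms also lay apart in the licensing, fork and histone lists. For nucleotide synthesis the medians were -0.16 with siE2F7 and -0.18 with siNT. For licensing genes the medians were -0.19 with siE2F7 and -0.52 with siNT, and for fork genes -0.20 and -0.44. MCM6 stood at 110, 91.5 and 95.4 FPKM with siE2F7, a log2 ratio of -0.21 where siNT was 2.83-fold lower. E2F1 stood at 66.5, 67.4 and 54.2 FPKM, a ratio of -0.30 against -1.31. The E cyclins had a large ratio in both arms, at -1.73 with siE2F7 and -1.92 with siNT for CCNE1 and at -2.03 and -2.84 for CCNE2. Median ratios of the 10 histone genes were 0.26 with siE2F7 and 1.41 with siNT. These genes had entered by their siNT values, several only through the siNT library of 12 h. The selection by itself favours a higher median in siNT, so the size of this gap cannot be read. HIST1H2BK, abundant in every library, stood at 36.2, 61.8 and 55.5 FPKM with siE2F7. With 1 library each, none of these differences between arms could be tested.

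**Figure D5:**
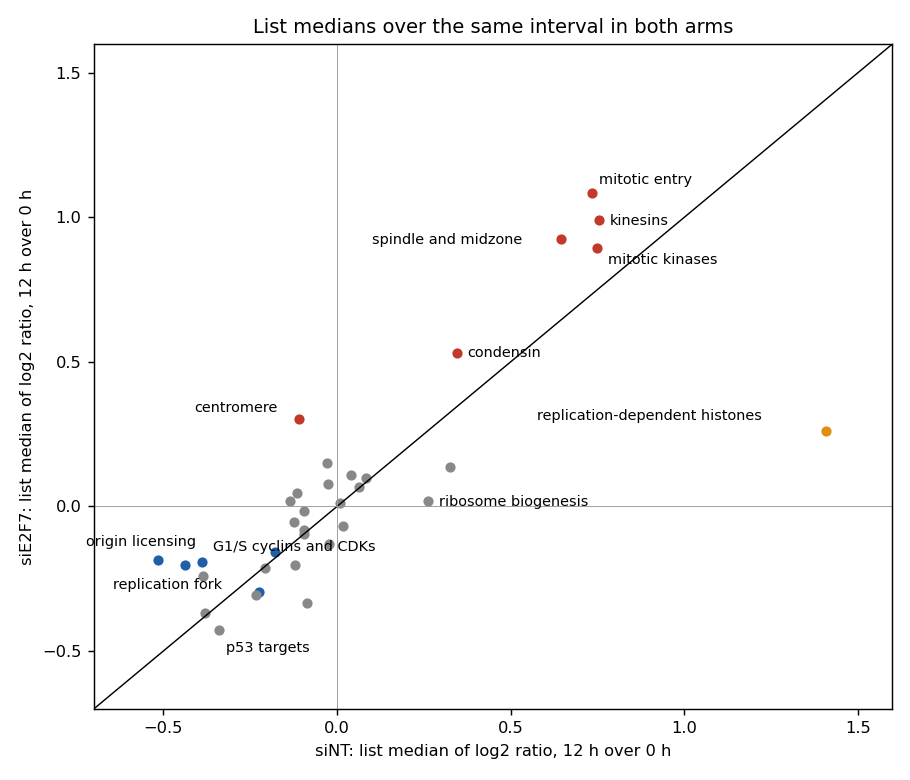
Median log2 ratio of 12 h over 0 h for each list with at least 6 measured genes, in siNT (x axis) and siE2F7 (y axis), with the line of equal medians. Mitotic lists (red) lie above the line, licensing and fork lists (blue) lie above it on the negative side at -0.52 and -0.44 for siNT, and the replication-dependent histones (orange) lie far below it at 1.41 and 0.26.

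Some genes could not be placed. Both arms of a time listed the same genes, but the tables differed between times, with 12799 entries at 0 h, 12475 at 3 h and 12299 at 12 h, and 716 genes were listed at 0 h but not 12 h and 216 the other way. Of those, 13 and 10 were at 10 FPKM or more in siNT, among them H2AFY, a macroH2A gene, at 93.9 FPKM at 0 h. The filter left out 3060 genes listed at both times, and 32 such genes were at 0 in a siNT library. Just inside the threshold ATL1 had a mean of 5.004 FPKM and a ratio of -0.68, and just outside it TMEM209 had a mean of 4.997 FPKM and a ratio of -0.12. FPKM summed to between 351305 and 375954 per siNT library, with medians from 10.07 to 10.61.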

How the data were processed

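The deposited tables hold FPKM per gene, made by the authors; per the submitters' processing notes the tools include CASAVA 1.8 and the build is hg19. Per the file headers the columns follow Cuffdiff's gene output. No source used here names an aligner, an annotation or a filter. Libraries were made with an Illumina TruSeq RNA kit, per the labels' protocols.

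Genes were joined on the tables' identifiers with Python 3.11.15 and pandas 2.3.3. Ratios are log2 of FPKM plus 0.1, which understates differences of low genes; with 1 library per group no test was run. Named are E2F7, the 20 highest and 20 lowest ratios, and up to 5 highest and 5 lowest per list. Also named are the 8 most above and 8 most below both ends at 3 h, and members with a defining role. The text shortens these, and UNG was named outside them. The members and the 38 lists were chosen with earlier results of these data known. Of the genes compared, 1518 share a locus with another entry, where reads may have been divided.

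RefSeq promoters matched 6498 genes by symbol and 672 by synonym; 1821 had none. The first start per gene was searched. In simulated data the ratio code was checked. Alternatives were other pseudocounts, filters, scalings, folds and gene sets.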

Additional observations from a re-analysis of the deposited data

Results flagged for a closer look

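Of the genes past 2-fold in siNT with a siE2F7 value, 96 of 100 higher and 117 of 121 lower ones kept their sign in siE2F7. For the other 8 genes the ratio of 12 h over 0 h had the opposite sign there. The share of opposite signs over all genes was not counted, and the difference was not tested. Of these, 3 are small RNA entries and 5 are other genes. HIST1H2BJ had a siE2F7 log2 ratio of -0.37 and HIST1H2BD one of -0.072, against 2.14 and 1.33 in siNT. EFCAB11 had 0.43 against -1.20, and LOC100506895 had 0.045 against -1.75. MUTED-TXNDC5, a read-through entry that shares its locus, had 5.90 against -1.28 and was listed at 0 in the siNT library of 3 h.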

How the results depend on the processing

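The median of the mitotic lists stayed between 0.48 and 0.60 under every alternative that gave it. With a mean of at least 1 FPKM, 156 genes were higher and 300 lower at 12 h, and 240 were highest and 263 lowest at 3 h. With at least 20 FPKM these counts were 39, 27, 19 and 18, and with no filter 174, 307, 247 and 263. A pseudocount of 1 left 92 genes lowest at 3 h. Centring on the median gene gave 171 highest and 90 lowest at 3 h, centring on housekeeping genes 208 and 76, and a common sum 188 and 81. At 3-fold, 27 genes were higher and 10 lower at 12 h. The filters let more or fewer genes enter, the fold is stricter, a centring shifts all ratios by a constant, and a larger pseudocount shrinks the ratios of low genes. Leaving out small RNA entries was chosen after seeing the data and gave 91 and 120 at 12 h.

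Of 4389 values of named genes under the alternatives, 4360 kept their side of 2-fold, 17 no longer reached it and 12, from 7 genes, newly did; none changed sign. The 17 came from 10 genes: SGOL2, CCNG2, CLSPN, H2AFY2, INSIG1, CLDN4, MCM5, DUT, CHAF1B and PSPH. No paired analysis was possible because each arm and time had 1 library. Depth is unknown, so how far it limits low genes cannot be given.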

Other observations

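Of the 100 higher genes 42 were in at least 1 of the lists, and of the 122 lower ones 18 were. The share of all 8991 genes in any list was not counted, so neither count can be set against a background. Among the higher genes outside the lists, TNFAIP8L1 stood at 4.57, 4.76 and 14.9 FPKM at 0, 3 and 12 h in siNT, level until 3 h as the mitotic genes were. CCDC144NL stood at 2.62, 23.2 and 13.8 FPKM and PDLIM4, a LIM protein of the actin cytoskeleton, at 15.5, 34.2 and 47.4 FPKM, both already higher at 3 h. SAA1, an acute phase protein, stood at 2.50, 4.22 and 8.44 FPKM. TNFAIP8L1, CCDC144NL and SAA1 were under 5 FPKM at 0 h and entered only through the library of 12 h, where they are called higher.

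Of the lower genes outside the lists, 4 are given as examples and do not stand for the rest. FAM20C, a kinase of secreted proteins, stood at 10.2, 7.79 and 2.35 FPKM, and RTN4R, the Nogo receptor, at 8.76 FPKM at 0 h and 2.15 FPKM at 12 h. With siE2F7 their log2 ratios were -2.62 and -2.42, beside -2.07 and -1.98 with siNT. SDPR, a protein of caveolae, was low by 3 h, at 10.9, 3.07 and 3.26 FPKM, whereas GCH1, which starts tetrahydrobiopterin synthesis, was lower only in the library of 12 h, at 8.12, 8.96 and 2.66 FPKM. All 4 were at or under 3.26 FPKM at 12 h, where the depth behind a value is unknown, and entered only through the library of 0 h.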
